A study of Mus musculus with 9 samples.

Results

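The core circadian clock was described here through 10 genes, Clock, Arntl, Per1, Per2, Per3, Cry1, Cry2, Nr1d1, Nr1d2 and Dbp, chosen by name, and all 10 were among the 11315 genes measured. They were followed in 9 RNA-seq libraries from fluorescence-sorted brain cells of C57BL/6 mice at postnatal day 60. The 3 groups of 3 libraries were sorted for PDGFRa::GFP (labelled oligodendrocyte progenitor cells), for PLP::GFP (labelled pre-myelinating oligodendrocytes) and for NDRG1-eGFP (labelled myelinating oligodendrocytes). They are called PDGFRa-GFP, PLP-GFP and NDRG1-eGFP below. The labels name the reporters and give no construct, sex, number of animals per library or hour of collection, and do not say that replicates came from different animals, so the p-values rest on library-to-library spread that may be technical. Values are the authors' normalized values on a log2 scale, where a difference of 1 is a factor of 2. They carry no read depth, and levels of different genes were not compared, because they are not per transcript length.

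The mammalian clock is a feedback loop that runs in nearly every cell of the body, glia included. CLOCK and BMAL1, the product of Arntl, form a pair of transcription factors that bind E-box motifs and drive the Per and Cry genes, whose proteins return to the nucleus and repress that pair. The same factors drive Nr1d1 and Nr1d2, whose products REV-ERB alpha and REV-ERB beta repress Arntl, and Dbp, whose product binds D-box motifs in clock output genes. In mouse tissues the transcripts of Dbp, the Per genes and Nr1d1 and Nr1d2 are known to peak at a time of day when Arntl is low. The labels give no hour of collection, so group differences in clock genes below cannot be told apart from differences in that hour.

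The promoter sequences are shown because they hold letters of the motifs that CLOCK and BMAL1, and DBP, are known to bind. RefSeq start sites (GRCm38.p6) were matched for 9 of the 10 members, with 13 start sites, and Per2 had no entry. The 250 bases before each start site were searched on both strands for the E-box CACGTG, the variant AACGTG or CACGTT, and the D-box TTATGTAA or TTACATAA, with matching bases in capitals. These sequences run 5′ to 3′ on the strand of the gene. Per1 is at chr11:69098699-69098948 (plus strand), Cry1 at chr10:85185055-85185304 (minus strand), Nr1d1 at chr11:98775378-98775627 (minus strand) and Per3 at chr4:151044666-151044915 (minus strand).
Per1: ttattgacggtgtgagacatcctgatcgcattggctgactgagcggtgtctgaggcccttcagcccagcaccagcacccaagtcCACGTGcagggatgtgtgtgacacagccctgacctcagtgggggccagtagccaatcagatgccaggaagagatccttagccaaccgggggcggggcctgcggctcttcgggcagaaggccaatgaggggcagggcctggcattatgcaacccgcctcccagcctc
Cry1: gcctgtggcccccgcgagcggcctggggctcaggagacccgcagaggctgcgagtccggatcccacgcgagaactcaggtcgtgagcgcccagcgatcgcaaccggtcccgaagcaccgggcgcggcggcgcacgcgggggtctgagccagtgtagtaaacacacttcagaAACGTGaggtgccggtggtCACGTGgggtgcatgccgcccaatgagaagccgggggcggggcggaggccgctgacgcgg
Nr1d1: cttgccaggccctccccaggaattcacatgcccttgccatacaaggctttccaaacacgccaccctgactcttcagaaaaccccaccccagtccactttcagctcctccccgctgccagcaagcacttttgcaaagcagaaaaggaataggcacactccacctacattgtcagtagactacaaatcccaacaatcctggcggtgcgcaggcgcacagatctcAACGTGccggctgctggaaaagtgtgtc
Per3: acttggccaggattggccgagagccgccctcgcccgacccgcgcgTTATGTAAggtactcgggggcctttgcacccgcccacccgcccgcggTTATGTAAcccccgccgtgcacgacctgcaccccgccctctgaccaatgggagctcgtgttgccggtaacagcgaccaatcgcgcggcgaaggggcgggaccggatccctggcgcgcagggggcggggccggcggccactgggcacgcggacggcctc

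Per1 had 1 E-box, which began 166 bases before the start site. Cry1 had 1 E-box at 60 bases and 1 variant at 79 bases before the start. The variant was also found in Nr1d1, at 28 bases, and in Cry2, at 166 bases. Per3 had 2 D-boxes, at 205 and 158 bases before the start. AGGTCA or TGACCT, the core recognised by ROR and REV-ERB receptors, was found in Nr1d2 at 77 bases, in Per1 at 137 bases and in Clock at 119 bases before its start site 3. None of these letters was in the windows of Arntl or Dbp. Of 32851 promoter windows of this length in the RefSeq table, 6.02% held the E-box, 3.85% the variant, 0.819% the D-box and 14.0% AGGTCA or TGACCT. A match describes these letters only.

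The sort labels were set against marker genes. The 10 myelin genes had library medians of 17.20 to 17.82 in PDGFRa-GFP, 17.54 to 17.73 in PLP-GFP and 18.06 to 18.14 in NDRG1-eGFP libraries, so that all groups held myelin transcripts at high values. The 10 measured progenitor markers had medians of 6.61 to 8.75, 7.35 to 8.13 and 6.96 to 7.49 in the same order, so that by the medians the groups overlapped. Their log2 sums, which the genes of highest value dominate, were 16.88 to 17.17, 16.69 to 16.80 and 16.88 to 17.06. By these sums alone every PDGFRa-GFP library lay above every PLP-GFP library, and the PDGFRa-GFP and NDRG1-eGFP ranges overlapped. In NDRG1-eGFP against PLP-GFP 2 of the 10 were called higher, Pdgfra (2.99, adjusted p = 0.0307) and Olig1 (0.39, adjusted p = 0.0147). Matn4 was called lower there (-1.26, adjusted p = 0.0413), where 26.1% of all genes were called higher and 22.2% lower. In PLP-GFP against PDGFRa-GFP only Pdgfra was called, lower (-3.92, adjusted p = 0.0274), as were 8.53% of all genes, and the uncalled markers had either sign. In NDRG1-eGFP against PDGFRa-GFP only Vcan was called, lower (-4.04, adjusted p = 0.0352), as were 10.4% of all genes. Of the 8 measured fibroblast-like markers 7 were called higher in NDRG1-eGFP relative to PLP-GFP cells, as were 26.1% of all genes. In PLP-GFP relative to PDGFRa-GFP cells 7 were called lower, as were 8.53% of all genes. The log2 of the summed linear values of the fibroblast-like markers was 12.72 to 13.67 in PDGFRa-GFP, 8.05 to 8.92 in PLP-GFP and 11.59 to 13.42 in NDRG1-eGFP libraries. Of 9 microglial markers 7 were called higher in NDRG1-eGFP relative to PLP-GFP cells, against the same 26.1% of all genes. Their log2 sums were 11.93 to 12.56 in PDGFRa-GFP, 11.49 to 12.07 in PLP-GFP and 12.59 to 13.10 in NDRG1-eGFP libraries. Of 7 endothelial markers 2 were measured, with log2 sums of 9.07 to 9.71 in PDGFRa-GFP, 9.83 to 10.25 in PLP-GFP and 9.53 to 10.33 in NDRG1-eGFP libraries. Cldn5 was called higher in PLP-GFP (5.26, adjusted p = 0.0160) and in NDRG1-eGFP cells (4.30, adjusted p = 0.0238), each against PDGFRa-GFP. In PDGFRa-GFP libraries it was at 0.35, 0.33 and 1.80, near the lowest values of any gene there (0.29, 0.29 and 0.32). Kdr, the other marker, was not called (0.51 in both, adjusted p = 0.143 and 0.141). PDGFRa-GFP replicate 3 stood apart from replicates 1 and 2 in its immediate early genes, whose median was 7.88 there, against 11.93 and 11.76. The part of these cells in the differences below was not tested, and fits without that library are given beside the calls of clock transcription factors that it altered. In sorted cell mixtures, fewer cells of a type and less RNA per cell cannot be told apart.

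Clock, on chromosome 5 (76209868 to 76304792, GRCm38), encodes the DNA-binding partner of BMAL1. Its values were 11.98, 11.69 and 11.64 in PDGFRa-GFP replicates 1, 2 and 3, then 12.47, 12.76 and 12.57 in PLP-GFP and 10.94, 11.16 and 11.24 in NDRG1-eGFP libraries. The 3 groups did not overlap: every PLP-GFP library was above, and every NDRG1-eGFP library below, all PDGFRa-GFP libraries. Clock fell in NDRG1-eGFP relative to PLP-GFP cells, with a log2 fold change of -1.49 ± 0.15 (SE, n = 3, limma adjusted p = 4.4e-05), and rose in PLP-GFP relative to PDGFRa-GFP cells by 0.84 ± 0.15 (adjusted p = 0.00851). The NDRG1-eGFP level was also lower than the PDGFRa-GFP level, with a log2 fold change of -0.66 ± 0.15 (adjusted p = 0.0114). The longest Clock transcript has 9744 bases. With each library's trend on transcript length removed, the 3 log2 fold changes were -0.79 (adjusted p = 4.94e-04), 0.52 (adjusted p = 0.0197) and -0.27 (adjusted p = 0.129), so the last was no longer called. Without PLP-GFP replicate 2 the difference between PLP-GFP and PDGFRa-GFP was not called (0.76, adjusted p = 0.0529).

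Arntl (chromosome 7, 113207465 to 113314126) encodes BMAL1, the one member of the loop without which the mouse clock stops. It measured 9.60, 8.97 and 9.12 in PDGFRa-GFP, 9.41, 9.33 and 9.54 in PLP-GFP and 9.72, 9.85 and 9.80 in NDRG1-eGFP libraries. All NDRG1-eGFP libraries lay above the others, and the PDGFRa-GFP and PLP-GFP ranges overlapped. No difference was called: the log2 fold change was 0.36 ± 0.19 for NDRG1-eGFP against PLP-GFP (adjusted p = 0.143), 0.20 ± 0.19 for PLP-GFP against PDGFRa-GFP (adjusted p = 0.494) and 0.56 ± 0.19 for NDRG1-eGFP against PDGFRa-GFP (adjusted p = 0.0631). The first was called when these groups were fitted alone (adjusted p = 0.0445). The last was called without PDGFRa-GFP replicate 1, the highest library of its group (0.75, adjusted p = 0.0264). Clock and Arntl, whose products act as a pair, thus had different group orders, with Clock highest in PLP-GFP and Arntl highest in NDRG1-eGFP libraries.

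**Figure D1:**
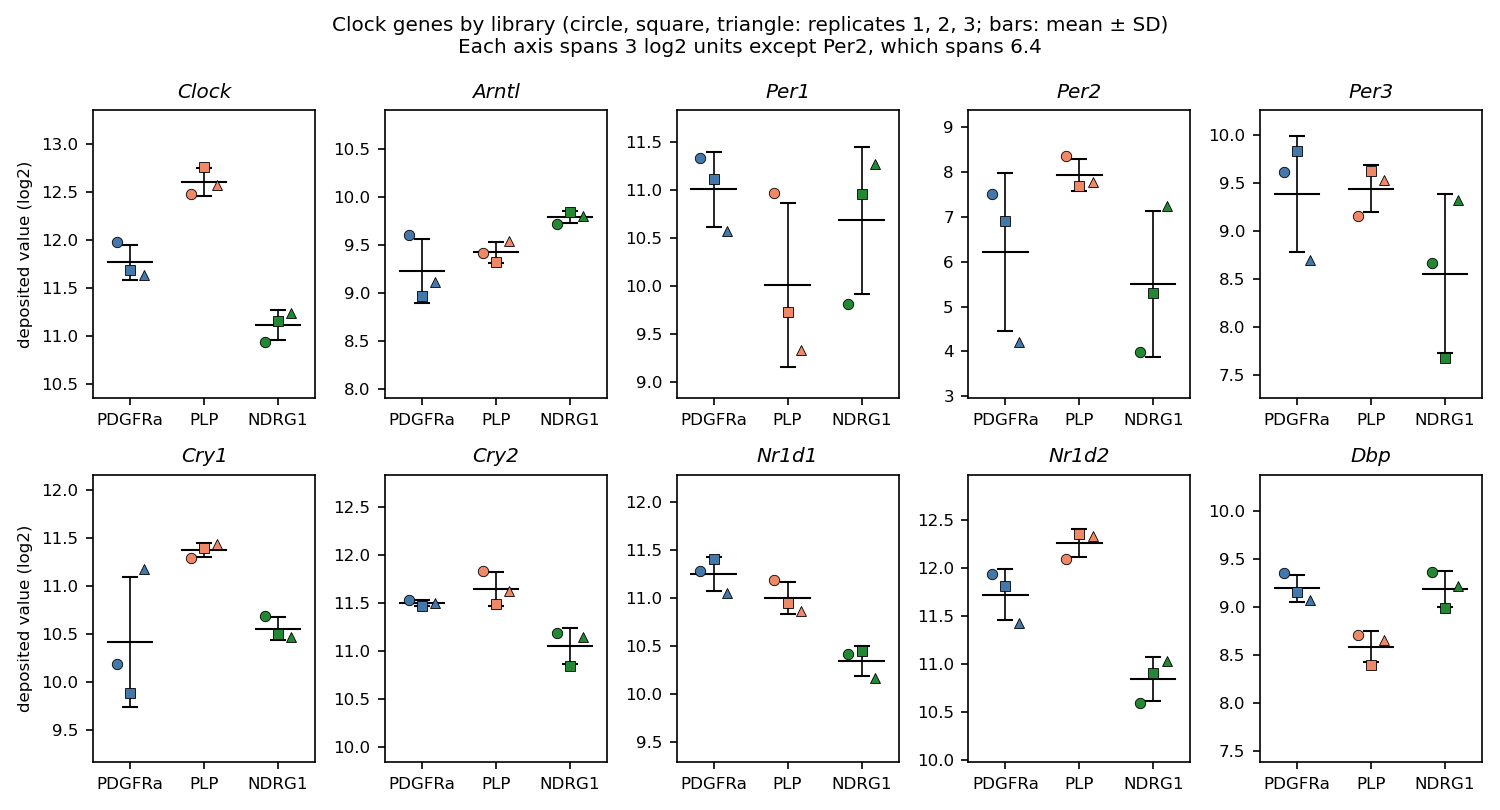
Deposited log2 value of the 10 clock genes (vertical axis) in the 3 sort groups (horizontal axis), with a point per library and bars for the mean ± SD of 3 libraries. Clock and Nr1d2 are highest in PLP-GFP and lowest in NDRG1-eGFP libraries, Dbp is lowest in PLP-GFP libraries, and Per2 spreads from 3.99 to 8.34.

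The Per genes encode the period proteins, which together with cryptochromes repress CLOCK and BMAL1. Per1 (chromosome 11, 69095217 to 69109960), which immediate early signals also induce, measured 11.33, 11.12 and 10.58 in PDGFRa-GFP, 10.97, 9.73 and 9.33 in PLP-GFP and 9.82, 10.96 and 11.27 in NDRG1-eGFP libraries. Its groups overlapped, and the SDs were 0.39, 0.85 and 0.77. Per2 (chromosome 1, 91415982 to 91459324) measured 7.50, 6.91 and 4.21 in PDGFRa-GFP, 8.34, 7.69 and 7.76 in PLP-GFP and 3.99, 5.31 and 7.23 in NDRG1-eGFP libraries. PLP-GFP libraries were the highest and closest together, and the other groups each spread over more than 3 log2 units. The value of 4.21 in PDGFRa-GFP replicate 3 was above only 1.80% of genes in that library and was tied with 20 other genes, and 3.99 in NDRG1-eGFP replicate 1 was above only 1.64%. Per3 (chromosome 4, 151003652 to 151044665) measured 9.62, 9.84 and 8.70 in PDGFRa-GFP, 9.16, 9.63 and 9.53 in PLP-GFP and 8.67, 7.68 and 9.32 in NDRG1-eGFP libraries, with overlap between all groups.

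No Per gene was called in any comparison. For NDRG1-eGFP against PLP-GFP the log2 fold change was 0.67 ± 0.45 for Per1 (adjusted p = 0.237), -2.42 ± 0.92 for Per2 (adjusted p = 0.0505) and -0.88 ± 0.41 for Per3 (adjusted p = 0.0957). The value for Per2 lay at the threshold and was called in 7 of 18 alternatives, among them without NDRG1-eGFP replicate 3 (-3.28, adjusted p = 0.0163) and without PDGFRa-GFP replicate 1 (adjusted p = 0.0449) or 3 (adjusted p = 0.00957), but not with the length trend removed (-1.93, adjusted p = 0.130). Per1 was called without PLP-GFP replicate 1 (1.15, adjusted p = 0.0443), and Per3 without NDRG1-eGFP replicate 3 (-1.27, adjusted p = 0.0287) or PDGFRa-GFP replicate 3 (-0.88, adjusted p = 0.0434). For PLP-GFP against PDGFRa-GFP the estimates were -0.9998 ± 0.45 for Per1, 1.72 ± 0.92 for Per2 and 0.05 ± 0.41 for Per3, with adjusted p-values of 0.141, 0.210 and 0.941. Without PDGFRa-GFP replicate 3 that of Per2 was 0.72 and that of Per3 -0.29, neither called. Without PLP-GFP replicate 1 that of Per1 was called (-1.48, adjusted p = 0.0449). For NDRG1-eGFP against PDGFRa-GFP they were -0.33, -0.70 and -0.83 (-0.54, -1.70 and -1.17 without PDGFRa-GFP replicate 3), and only that of Per3 was called in any alternative, without that library (adjusted p = 0.0315).

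The cryptochromes Cry1 and Cry2 are the direct repressors of CLOCK and BMAL1. Cry1 (chromosome 10, 85131700 to 85185064) measured 10.19, 9.88 and 11.17 in PDGFRa-GFP, 11.29, 11.40 and 11.43 in PLP-GFP and 10.69, 10.50 and 10.47 in NDRG1-eGFP libraries. All PLP-GFP libraries lay above all others, and PDGFRa-GFP replicate 3 lay next to them. Cry1 fell in NDRG1-eGFP relative to PLP-GFP cells (-0.82 ± 0.27, adjusted p = 0.0297) and rose in PLP-GFP relative to PDGFRa-GFP cells (0.96 ± 0.27, adjusted p = 0.0382). Both calls depended on the libraries fitted. The first was lost whenever any of the 6 libraries compared was dropped (adjusted p from 0.0535 to 0.0830), though its estimate stayed between -0.89 and -0.78. With these 2 groups fitted alone its adjusted p was 3.29e-04, and without PDGFRa-GFP replicate 3 it was 2.77e-04. The SD of Cry1 was 0.67 in PDGFRa-GFP, 0.08 in PLP-GFP and 0.12 in NDRG1-eGFP libraries, and the main fit shares 1 estimate of spread. The second was lost when any of 8 of the 9 libraries was dropped, all but PDGFRa-GFP replicate 3 (1.34), and with the length trend removed (0.91, adjusted p = 0.0621). For NDRG1-eGFP against PDGFRa-GFP Cry1 had 0.14 ± 0.27 (adjusted p = 0.742), and without PDGFRa-GFP replicate 3 it was called (0.52, adjusted p = 0.0144).

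Cry2 (chromosome 2, 92403646 to 92434043) varied little, at 11.53, 11.47 and 11.49 in PDGFRa-GFP, 11.83, 11.48 and 11.62 in PLP-GFP and 11.18, 10.84 and 11.14 in NDRG1-eGFP libraries. NDRG1-eGFP libraries were all below the others, while PDGFRa-GFP and PLP-GFP overlapped. Cry2 fell in NDRG1-eGFP relative to PLP-GFP cells (-0.59 ± 0.14, adjusted p = 0.00691). Against PDGFRa-GFP its log2 fold change was -0.45 ± 0.14 with an adjusted p of 0.0503, and it was called in 5 of 19 alternatives, one of them with the length trend removed (-0.50, adjusted p = 0.0454) and another without PDGFRa-GFP replicate 3 (-0.45, adjusted p = 0.0310).

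Nr1d1 and Nr1d2 encode the nuclear receptors REV-ERB alpha and REV-ERB beta, which repress Arntl. Nr1d1 (chromosome 11, 98767932 to 98775333) measured 11.28, 11.40 and 11.05 in PDGFRa-GFP, 11.18, 10.95 and 10.86 in PLP-GFP and 10.41, 10.44 and 10.17 in NDRG1-eGFP libraries. Nr1d2 (chromosome 14, 18204054 to 18239127) measured 11.94, 11.81 and 11.43 in PDGFRa-GFP, 12.09, 12.36 and 12.34 in PLP-GFP and 10.595, 10.91 and 11.03 in NDRG1-eGFP libraries. In both genes every NDRG1-eGFP library lay below every other library.

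Both REV-ERB genes fell in NDRG1-eGFP cells in both comparisons. Relative to PLP-GFP cells the log2 fold change was -0.66 ± 0.16 for Nr1d1 (adjusted p = 0.00612) and -1.42 ± 0.17 for Nr1d2 (adjusted p = 1.81e-04). Relative to PDGFRa-GFP cells it was -0.90 ± 0.16 (adjusted p = 0.00325) and -0.88 ± 0.17 (adjusted p = 0.00641). With the length trend removed the differences from PLP-GFP were -0.88 and -1.11 and those from PDGFRa-GFP -1.11 and -0.84, and all 4 were still called, as they were when each of the 9 libraries was dropped in turn. Nr1d1 was not called in PLP-GFP against PDGFRa-GFP (-0.25 ± 0.16, adjusted p = 0.278). Nr1d2 had 0.54 ± 0.17 between them (adjusted p = 0.0559), and was called without PDGFRa-GFP replicate 1 (0.64, adjusted p = 0.0420). The Nr1d1 value is uncertain, because 9.67% of its exon bases overlap exons of Thra, a thyroid hormone receptor gene on the opposite strand, and the strand setting of the counting is not given in the sources used here. Thra averaged 13.19 in PDGFRa-GFP, 13.11 in PLP-GFP and 12.01 in NDRG1-eGFP libraries, and itself fell in NDRG1-eGFP cells relative to PLP-GFP (-1.10 ± 0.12, adjusted p = 1.04e-04) and PDGFRa-GFP cells (-1.18, adjusted p = 9.55e-05). Of the 50-base windows in Nr1d2 transcripts, 5.13% also occur in transcripts of other loci.

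Dbp (chromosome 7, 45705088 to 45710203) encodes a transcription factor of the PAR bZIP family and is a direct target of CLOCK and BMAL1. Its values were 9.35, 9.16 and 9.07 in PDGFRa-GFP, 8.70, 8.40 and 8.66 in PLP-GFP and 9.36, 8.98 and 9.21 in NDRG1-eGFP libraries. All PLP-GFP libraries were below all others, and the other groups overlapped throughout. Dbp rose in NDRG1-eGFP relative to PLP-GFP cells (0.60 ± 0.19, adjusted p = 0.0250), and had -0.61 ± 0.19 in PLP-GFP against PDGFRa-GFP (adjusted p = 0.0526) and -0.01 ± 0.19 in NDRG1-eGFP against PDGFRa-GFP (adjusted p = 0.979). The longest Dbp transcript has 1837 bases, the shortest among the members, and with the length trend removed the call was lost (0.08, adjusted p = 0.780). It was also lost without PLP-GFP replicate 2 (0.51) or 3 (0.64) and without NDRG1-eGFP replicate 1 (0.51) or 3 (0.59). The difference between PLP-GFP and PDGFRa-GFP was called without PDGFRa-GFP replicate 3 (-0.67, adjusted p = 0.0308). Exons of Sphk2 on the opposite strand cover 29.3% of Dbp exon bases, so the value is uncertain. Sphk2 averaged 11.54, 11.47 and 11.62 in PDGFRa-GFP, PLP-GFP and NDRG1-eGFP libraries. The PLP-GFP libraries, lowest in Dbp, were also lowest in the fibroblast-like sums above and in the median of the immediate early genes. Of these 26 genes 17 were called higher in NDRG1-eGFP relative to PLP-GFP cells, as were 26.1% of all genes. The part of the fibroblast-like cells or of the immediate early genes in the Dbp difference was not tested.

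Counted over the 10 members, NDRG1-eGFP cells had 5 lower (Clock, Cry1, Cry2, Nr1d1 and Nr1d2) and 1 higher (Dbp) than PLP-GFP cells, where 22.2% of all 11315 genes were called lower and 26.1% higher. The median log2 fold change was -0.74 for the members and 0.08 for all genes. With the length trend removed 5 were lower and 0 higher, where 1847 of 11272 genes were called lower and 1606 higher. The median was then -0.62 for the members and 0.018 for all genes. PLP-GFP cells had 2 members higher (Clock and Cry1) and 0 lower than PDGFRa-GFP cells by limma, where 8.46% of genes were called higher and 8.53% lower. At an unadjusted p under 0.05 there were 3 higher and 2 lower. The share of all genes at that looser threshold was not counted, so counts at an unadjusted p, here and below, have no background. NDRG1-eGFP cells had 3 members lower (Clock, Nr1d1 and Nr1d2) and 0 higher than PDGFRa-GFP cells by limma, where 10.4% of genes were called lower and 10.7% higher, and at an unadjusted p under 0.05 there were 4 lower and 1 higher. Without PDGFRa-GFP replicate 3 the last count became 5 lower and 1 higher, while the calls among all genes in that refit were 1817 lower and 2804 higher. Among all genes the NDRG1-eGFP against PDGFRa-GFP calls were 1207 up and 1176 down, which became 591 and 1362 when libraries were recentred by their median ratio and 511 and 1118 with the length trend removed. The PLP-GFP against PDGFRa-GFP calls were 957 up and 965 down, which became 347 and 581 with the length trend removed. The comparisons share groups, so their counts are not independent.

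**Figure D2:**
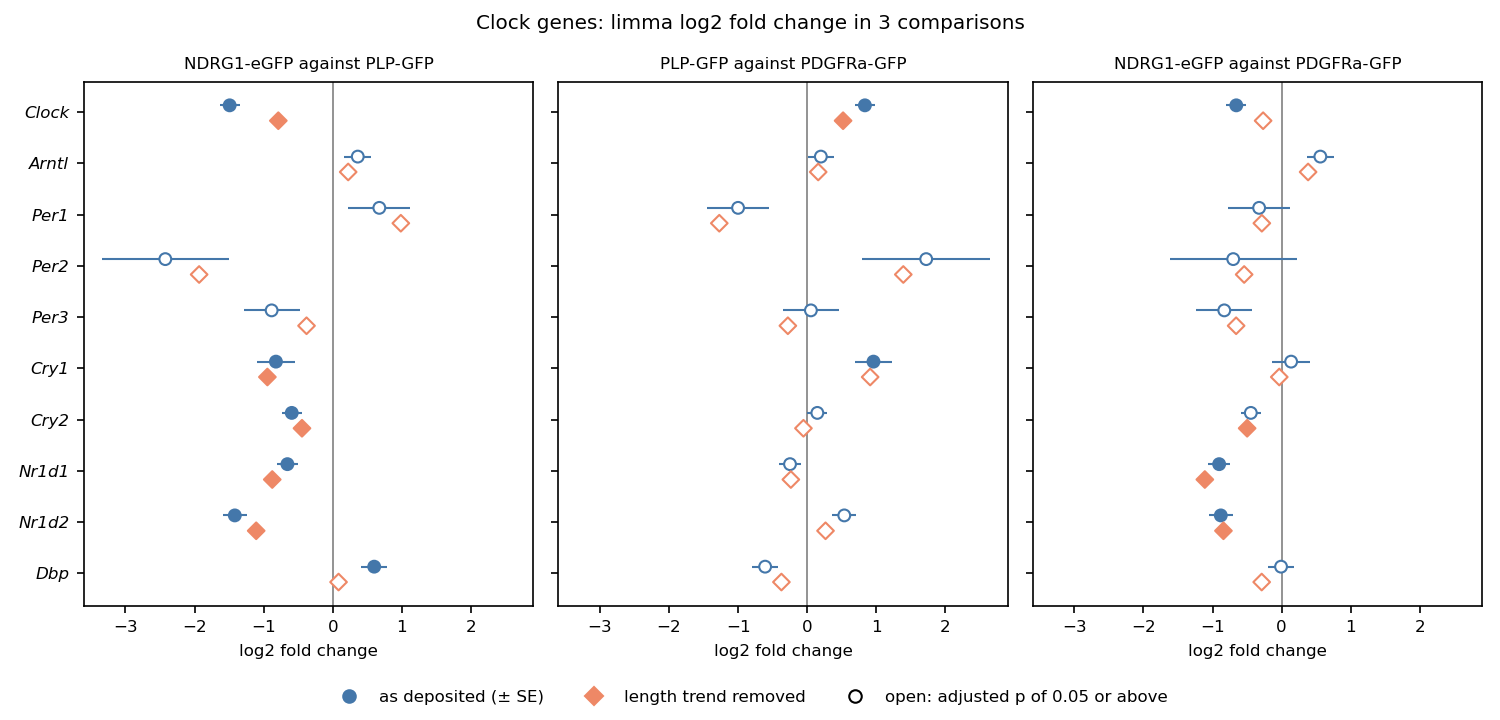
Limma log2 fold change (horizontal axis) of each clock gene (vertical axis) in the 3 comparisons, as deposited with its SE (circles) and with the trend on transcript length removed (diamonds), filled where the adjusted p was under 0.05. Nr1d1 and Nr1d2 are filled in both comparisons of NDRG1-eGFP cells under both treatments, and Dbp moves from 0.60 to 0.08 in NDRG1-eGFP against PLP-GFP once the length trend is removed.

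Whether the libraries of a group differed in clock phase was examined through the spread within groups. The pooled SD within groups was 0.15 for Cry2, 0.16 for Clock, 0.17 for Nr1d1, 0.17 for Dbp, 0.21 for Arntl and 0.22 for Nr1d2. For all genes the median of this SD was 0.26, and it was 0.23 for genes with a mean of at least 8 and 0.66 for genes below. Cry1 had 0.40, Per3 0.61, Per1 0.70 and Per2 1.40, larger than in 73.5%, 86.9%, 89.7% and 97.2% of all genes. The members thus divided into 6 with a spread below the median of all genes, among them Arntl, Dbp, Nr1d1 and Nr1d2 from the opposite arms of the loop, and 4 with a spread above it.

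The opposite arms were then compared within groups through Arntl and Dbp. The range of Arntl was 0.64 in PDGFRa-GFP, 0.22 in PLP-GFP and 0.12 in NDRG1-eGFP libraries. That of Dbp was 0.27, 0.31 and 0.37. In PDGFRa-GFP libraries replicate 1 had the highest Arntl and the highest Dbp of its group, so these genes did not lie on opposite sides there. In PLP-GFP libraries replicate 2 was lowest in both, and in NDRG1-eGFP libraries replicate 1 was lowest in Arntl and highest in Dbp, by 0.12 and 0.37 from the libraries at the other end. PDGFRa-GFP replicate 3 lay below its group mean in all 6 of Per1 (-0.43), Per2 (-1.9985), Per3 (-0.68), Nr1d1 (-0.19), Nr1d2 (-0.30) and Dbp (-0.12), and also in Arntl (-0.11), and above it in Cry1 (0.76). Replicate 2 of that group, lowest in Arntl (-0.26), lay above the mean in Per1 (0.11), Per2 (0.70), Per3 (0.45), Nr1d1 (0.16) and Nr1d2 (0.09). It lay below the mean in Dbp (-0.04) and Cry1 (-0.53). Replicate 1, highest in Arntl (0.37), lay above the mean in all 6.

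A difference between arms was then taken per library, as the mean of Dbp, Per1, Per2, Per3, Nr1d1 and Nr1d2 minus Arntl. Its size depends on which genes enter and has meaning only between libraries. It was 0.57, 1.07 and 0.05 in PDGFRa-GFP, 0.66, 0.46 and 0.20 in PLP-GFP and -0.92, -0.80 and -0.10 in NDRG1-eGFP libraries, with means of 0.56 ± 0.51, 0.44 ± 0.23 and -0.60 ± 0.44 (SD, n = 3). All NDRG1-eGFP libraries were below all others. Without Per1 and Per2 it was 0.94, 1.59 and 0.94 in PDGFRa-GFP, 0.87, 1.01 and 0.80 in PLP-GFP and 0.04, -0.34 and 0.13 in NDRG1-eGFP libraries. Its range within groups was then 0.64, 0.20 and 0.47, against 1.02, 0.46 and 0.82 with Per1 and Per2. With Dbp alone in place of the arm the groups came in another order, with means of -0.04 ± 0.22 in PDGFRa-GFP, -0.84 ± 0.12 in PLP-GFP and -0.61 ± 0.25 in NDRG1-eGFP libraries. No p is given for these differences, because they are scores over chosen members.

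Per1 and Per2 were set beside the immediate early genes, since both genes also respond to such signals. The median of 26 immediate early and dissociation stress genes was 11.93, 11.76 and 7.88 in PDGFRa-GFP, 7.18, 6.75 and 6.81 in PLP-GFP and 10.91, 8.57 and 11.60 in NDRG1-eGFP libraries. In PDGFRa-GFP libraries replicate 3 was lowest in this median, in Per1 and in Per2. In NDRG1-eGFP libraries replicate 2 was lowest in the median, while replicate 1 was lowest in Per1 and Per2. In PLP-GFP libraries replicate 2 was lowest in the median and in Per2, and replicate 3 in Per1. At the other end, the library highest in the median was also highest in Per1 and Per2 in each group. These were PDGFRa-GFP replicate 1, PLP-GFP replicate 1 and NDRG1-eGFP replicate 3. PLP-GFP libraries had the lowest medians, the highest Per2 mean, 7.93, and the lowest Per1 mean, 10.01 (11.01 in PDGFRa-GFP and 10.68 in NDRG1-eGFP). Of the 18 measured glucocorticoid-induced genes 5 were called higher and 1 lower in NDRG1-eGFP relative to PLP-GFP cells, against 26.1% and 22.2% of all genes, and the library medians overlapped, at 10.18 to 11.87 in NDRG1-eGFP and 10.23 to 12.62 in PLP-GFP libraries. PLP-GFP replicate 1, at 12.62, had the highest such median of its group and also the highest Per1. Within each of the 3 groups the glucocorticoid median ordered the libraries as Per1 did. It was 12.01, 11.49 and 10.68 in PDGFRa-GFP, 12.62, 10.45 and 10.23 in PLP-GFP and 10.18, 11.09 and 11.87 in NDRG1-eGFP libraries. Per2 followed the same order in PDGFRa-GFP and NDRG1-eGFP but not in PLP-GFP libraries. The part of these signals in the spread of Per1 and Per2 was not tested.

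**Figure D3:**
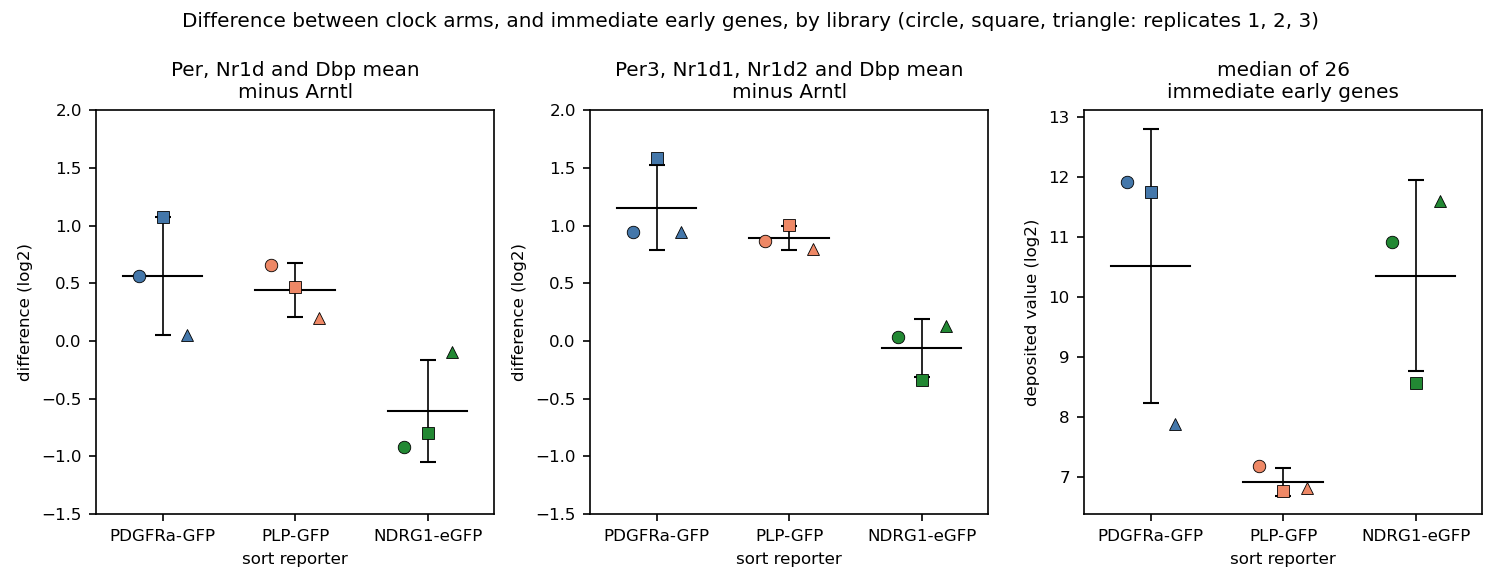
Difference between the clock arms per library, as the mean of 6 genes (left) or 4 genes (middle) minus Arntl on the log2 scale, and the median log2 value of 26 immediate early genes (right), by sort group, with bars for the mean ± SD of 3 libraries. NDRG1-eGFP libraries lie lowest in both difference panels, and without Per1 and Per2 the points of each group lie closer together.

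Among the other transcription factors of the loop, 8 of 11 listed were analysed. In NDRG1-eGFP relative to PLP-GFP cells 2 rose and 3 fell, where 26.1% of all genes were called higher and 22.2% lower. Nfil3, which encodes a repressor that competes with DBP for D-boxes, averaged 10.83 ± 0.19 in NDRG1-eGFP and 10.07 ± 0.17 in PLP-GFP libraries (SD, n = 3), a log2 fold change of 0.76 ± 0.16 (SE, adjusted p = 0.00378). Ciart, a repressor of CLOCK and BMAL1, averaged 8.71 ± 0.19 and 7.90 ± 0.33 in the same groups (0.81 ± 0.24, adjusted p = 0.0176), with 11.9% of its windows shared with other loci, and was not called without PLP-GFP replicate 2 (0.67) or 3 (0.77) or NDRG1-eGFP replicate 1 (0.71). Tef (-0.74 ± 0.19, adjusted p = 0.00896) and Hlf (-1.90 ± 0.53, adjusted p = 0.0132), the PAR bZIP relatives of Dbp, fell, opposite in direction to Dbp, though Hlf was not called without PLP-GFP replicate 2 (-1.82, adjusted p = 0.0522). Rorb, a receptor that activates through the motif REV-ERB proteins bind, fell (-3.10 ± 0.81, adjusted p = 0.00963), averaging 3.64 ± 1.34 in NDRG1-eGFP and 6.74 ± 0.24 in PLP-GFP libraries. The Rorb values in NDRG1-eGFP replicates 1, 2 and 3 (2.11, 4.21 and 4.61) were above only 0.716%, 1.82% and 2.37% of genes in those libraries. The Hlf values there (4.40, 4.86 and 5.51) were above only 2.09%, 2.71% and 4.26%. With the length trend removed only Rorb (-2.42, adjusted p = 0.0358) kept its call among these 5. Hlf then had -1.43 (adjusted p = 0.0663), Tef -0.49 (adjusted p = 0.0573), Nfil3 0.31 (adjusted p = 0.108) and Ciart 0.33 (adjusted p = 0.336). Bhlhe40, a repressor that competes at E-boxes, was called there (-0.74, adjusted p = 0.0378, against -0.64 and 0.0521 as deposited), as it was without PDGFRa-GFP replicate 2 (adjusted p = 0.0191) or 3 (adjusted p = 0.00953).

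In NDRG1-eGFP relative to PDGFRa-GFP cells Nfil3 rose (0.78 ± 0.16, adjusted p = 0.00888) and Hlf fell (-2.17 ± 0.53, adjusted p = 0.0173), where 10.7% of all genes were called higher and 10.4% lower, and both were called with the length trend removed (0.51 and -2.03). Hlf averaged 4.92 ± 0.56 in NDRG1-eGFP and 7.09 ± 0.87 in PDGFRa-GFP libraries, and its call was lost without NDRG1-eGFP replicate 1 (-1.91, adjusted p = 0.0560) or 2 (-2.14, adjusted p = 0.0502). None of the 8 was called in PLP-GFP against PDGFRa-GFP cells by limma, where 1 was lower and 0 higher at an unadjusted p under 0.05. Rora, which opposes REV-ERB at Arntl, averaged 9.52, 9.66 and 9.74 in PDGFRa-GFP, PLP-GFP and NDRG1-eGFP libraries, and Bhlhe41 averaged 9.59, 9.13 and 8.96, neither called in any of the 3 comparisons. Without PDGFRa-GFP replicate 3 the differences of NDRG1-eGFP from PDGFRa-GFP were called for Rora (0.57), Rorb (-2.35) and Tef (-0.50), and that of PLP-GFP from PDGFRa-GFP for Ciart (-0.75). Without PDGFRa-GFP replicate 2 Bhlhe40 was called in NDRG1-eGFP against PDGFRa-GFP (-0.78).

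**Figure D4:**
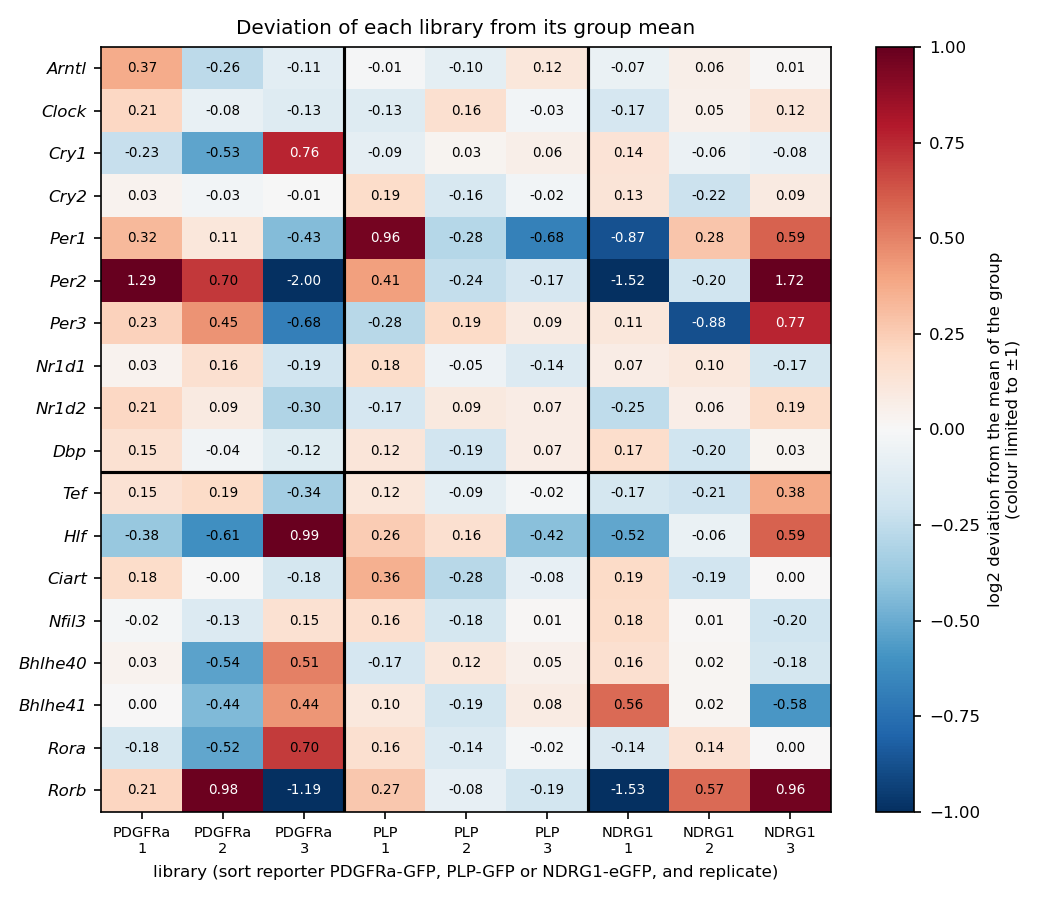
Deviation of each library from the mean of its group on the log2 scale (colour and printed value), for the 10 clock genes above the line and the 8 other clock transcription factors below it, with libraries in columns. Per2, Per1 and Per3 deviate most among the members, and the deviations of Dbp stay between -0.20 and 0.17.

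Of 23 measured kinases, ligases and partners of the clock proteins, 11 fell and 2 rose in NDRG1-eGFP relative to PLP-GFP cells, where 22.2% of all genes were called lower and 26.1% higher. With the length trend removed 6 were lower and 2 higher, where 1847 of 11272 genes were called lower and 1606 higher. The higher genes were then Gsk3b (0.60) and Kmt2a (0.56) in place of Csnk2b and Btrc. Sirt1, a deacetylase that acts on clock proteins, fell (-1.87 ± 0.28, adjusted p = 5.91e-04), and so did Csnk1e, a casein kinase that phosphorylates PER proteins (-0.45 ± 0.14, adjusted p = 0.0201). Ddb1, of the DNA damage binding complex, had -0.69 ± 0.13 and Sfpq, found in PER complexes together with Nono, had -0.47 ± 0.11, and these 4 genes stayed called with the length trend removed. Csnk2a1 (-1.95) and Nono (-0.89) were called lower too, but share 32.5% and 15.0% of their windows with other loci and are uncertain. Csnk2b, the regulatory subunit of casein kinase II, was called higher at 0.93 ± 0.16, but had 0.15 (adjusted p = 0.344) with the length trend removed. The coactivators Crebbp (-0.58) and Ep300 (-1.03) and the REV-ERB corepressor Ncor1 (-0.42) also lost their calls there, where Ep300 had -0.33 and the sign turned for Crebbp (0.16) and Ncor1 (0.26). Csnk1d, the other PER kinase, had 0.05 ± 0.11 (adjusted p = 0.724). Relative to PDGFRa-GFP cells 6 fell and 2 rose in NDRG1-eGFP cells, against 10.4% and 10.7% of all genes, with Sirt1 at -1.64 ± 0.28 (adjusted p = 0.00332) and Csnk1d at 0.41 ± 0.11 (adjusted p = 0.0262). In PLP-GFP relative to PDGFRa-GFP cells 3 rose and 1 fell, against 8.46% and 8.53% of all genes, the last being Hdac3 (-0.58 ± 0.15, adjusted p = 0.0318), the deacetylase recruited by REV-ERB. None of these 4 was called once the length trend was removed, where 581 of 11272 genes were called lower and 347 higher. The genes then called were 3 lower ones, Sfpq (-0.38, adjusted p = 0.0335), Crebbp (-0.58, adjusted p = 0.0406) and Kmt2a (-0.67, adjusted p = 0.0469).

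Of 12 measured genes that many mouse tissues express in a daily rhythm, 3 rose and 3 fell in NDRG1-eGFP relative to PLP-GFP cells, shares near the 26.1% and 22.2% of all genes called higher and lower. Tsc22d3, which glucocorticoids also induce, rose (0.73 ± 0.12, adjusted p = 8.49e-04), as did Por (0.67 ± 0.13) and Herpud1 (0.68 ± 0.17), while Ypel2 (-0.75 ± 0.12), Tfrc (-0.51 ± 0.13) and Lonrf3 (-1.79 ± 0.48) fell. With the length trend removed Por (0.43) was still higher and Ypel2 (-0.41) and Lonrf3 (-1.94) still lower. Usp2, an E-box target that oscillates widely, had -0.13 between these groups (adjusted p = 0.464), 0.08 in PLP-GFP against PDGFRa-GFP (adjusted p = 0.703) and -0.05 in NDRG1-eGFP against PDGFRa-GFP (adjusted p = 0.833). In PLP-GFP relative to PDGFRa-GFP cells 0 rose and 1 fell by limma (1 and 1 at an unadjusted p under 0.05), the gene that fell being Tsc22d3 (-0.48). In NDRG1-eGFP relative to PDGFRa-GFP cells Por rose (0.52) and Ypel2 fell (-0.59).

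The genes most like 3 members over the 9 libraries were found by the root mean square difference of log2 values after each gene's mean was subtracted. For Dbp, whose own root mean square deviation was 0.32, they were Ldhb (0.09), Bcl2l2 (0.12), Tnrc6b (0.12), Masp1 (0.13) and Ciart (0.14), so that 1 clock gene stood among the 5. For Arntl (own deviation 0.29) they were Mvp (0.10), Cwf19l1 (0.11), Rab22a (0.11), Ercc3 (0.12) and Gart (0.13). For Nr1d1 (own deviation 0.40) they were Mettl7a1 (0.14), Pkm (0.14), Scp2 (0.14), Uck1 (0.15) and Rnf7 (0.15). Among the members the one nearest to Nr1d1 was Cry2 (0.27), ahead of Nr1d2 (0.43). Dbp and Arntl were 0.38 apart. With 3 groups of libraries, genes with like group means come close by this measure whatever else they share.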

How the data were processed

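RNA had been sequenced from 9 libraries of sorted mouse brain cells in 3 groups. Every file held a single library as pairs of symbol and value. The authors deposited normalized values, per the file headers, read here as log2: they reach 21.87 in every library, which on another common base would exceed plausible read numbers, and their sorted values nearly match between libraries, as after quantile normalization. Depth is therefore unknown. BWA, DESeq2 1.2.5 and mm10 are named, without roles, in the submitters' processing notes. 17 rows whose symbol had become a date were not named.

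Limma-trend (limma 3.58.1, R 4.3.3) was fitted to all 11315 genes in 9 libraries, with a term per group, no filter and no added constant. P-values were two-sided, with Benjamini-Hochberg adjustment over all genes and calls at an adjusted p under 0.05. An exact permutation test of 3 libraries against 3 could not reach this threshold and was not used. The fit was tested on simulated data with 200 changed genes per comparison. It called 50% to 51% of changes of 1 log2 unit and 81% to 85% of changes of 2, with 5 to 13 false calls. A gene not called may therefore still differ by 1 log2 unit. Transcript lengths (longest GENCODE M21 basic transcript, GRCm38) were matched for 11272 genes, and the length trend was a loess line per library through the deviations from each gene's mean. Alternatives were a replicate block, recentring, a mean of at least 8, linear constants of 0.1 and 5, fits of 2 groups, stricter thresholds, robust empirical Bayes, length and leaving out each library. The members, gene lists and tests were chosen with earlier results of these data known. Named were all members, the other clock transcription factors, up to 6 called genes per list and comparison by smallest adjusted p, and the 5 genes most like Dbp, Arntl and Nr1d1. Csnk1e, Csnk1d in 1 comparison, Sfpq in 1, Ep300, Ncor1 in 1, Usp2, Gsk3b, Kmt2a, the markers Pdgfra, Olig1, Matn4, Vcan, Cldn5 and Kdr and the overlapping genes Thra and Sphk2 were named after their values were seen.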

Additional observations from a re-analysis of the deposited data

How the results depend on the processing

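Over the 10 members, 567 refits of 30 fold changes were made, of which 497 kept direction and side of the threshold, 37 lost a call, 23 gained one and 10 changed sign. The number of members called in NDRG1-eGFP against PLP-GFP was 6, 4 to 8 without a library, and 2 when a log2 fold change of 1 or more in size was also required. It was 8 without PDGFRa-GFP replicate 3, where 3783 of all genes were called up and 3125 down, and 4 without PLP-GFP replicate 2, where 2114 were up and 1847 down. In PLP-GFP against PDGFRa-GFP it was 2, and 1 with the replicate block, with the 2 groups compared alone, with the length trend removed and at an adjusted p under 0.01, and 0 with the fold limit. Leaving out a library gave 0 (without PLP-GFP replicate 2) to 3 (without PDGFRa-GFP replicate 3). Calls among all genes moved alike, from 957 up and 965 down to 92 and 186 in the first of these refits and 1449 and 1340 in the second. In NDRG1-eGFP against PDGFRa-GFP it was 3, 0 with the fold limit, and 3 to 6 without a library, the highest without PDGFRa-GFP replicate 3. The labels do not say whether same-numbered libraries belong together. Deviations from group means correlated over genes at -0.234 to 0.0941 between same-numbered libraries and at -0.134 to 0.225 between the others. Such values cannot decide whether libraries were paired. Of all genes the replicate block called 338 up and 384 down in PLP-GFP against PDGFRa-GFP and 457 up and 864 down in NDRG1-eGFP against PDGFRa-GFP.

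Among the members and the other clock transcription factors, the values that changed sign were uncalled. With the length trend removed, Per3 (-0.28), Cry2 (-0.0539) and Rora (-0.17) did so in PLP-GFP against PDGFRa-GFP, Cry1 (-0.0338) and Ciart (-0.13) in NDRG1-eGFP against PDGFRa-GFP, and Bhlhe41 (0.35) in NDRG1-eGFP against PLP-GFP. Nfil3 did so after recentring (-0.00124 in PLP-GFP against PDGFRa-GFP). Fits without a library ranged from -0.29 to 0.28 for Per3, -0.12 to 0.49 for Rora, -0.0622 to 0.11 for Nfil3, -0.58 to 0.22 for Hlf and -0.14 to 0.38 for Bhlhe40 in PLP-GFP against PDGFRa-GFP. They ranged from -0.62 to 0.11 for Per1, -1.70 to 0.0589 for Per2, -0.13 to 0.52 for Cry1, -0.0949 to 0.0923 for Dbp and -0.0389 to 0.57 for Rora in NDRG1-eGFP against PDGFRa-GFP, and from -0.45 to 0.12 for Bhlhe41 in NDRG1-eGFP against PLP-GFP.

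The arm difference without Per1 and Per2 averaged 1.16, 0.89 and -0.0588 in PDGFRa-GFP, PLP-GFP and NDRG1-eGFP libraries, and with Dbp alone -0.0365 and -0.84 in the first 2. The planned mean of Arntl and Npas2 was not run. A filter at a mean of 8 removed Per2, Hlf and Rorb. Depth is unknown, so no limit of detection can be given for Per2, Hlf or Rorb.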
